A study of Mus musculus with 60 samples.

Results

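Receptor, common and inhibitory Smads and the Smad co-repressors Ski and Skil were described across 2 sets of mouse fibroblast cultures by bulk RNA sequencing. The 10 genes (Smad1, Smad2, Smad3, Smad4, Smad5, Smad6, Smad7, Smad9, Ski and Skil) were chosen by symbol, 1 row each, from the 56980 genes counted in both tables. The study asked whether OSKM reprogramming or small-molecule inhibition of TGFb or BMP receptors changes cells with an Ercc1 DNA repair defect. All 60 libraries came from fibroblasts cultured at low oxygen, in 20 groups of 3.

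The reprogramming set held 36 libraries. Its D/KO cells carried the labelled genotype 4FJ_ERCC1_(d/-), from tail tips of an 8 week old male, and its WT cells were 4FJ_(+/-)_OCT4-GFP, from tail tips of a 22 week old female. 4Fj is a doxycycline-inducible cassette of Oct4, Sox2, Klf4 and c-Myc, so both lines could be reprogrammed. The published description traces the cassettes of the D/KO and the OCT4-GFP cells to separately made mouse lines. Each line was sampled at day 0, day 2 and day 4 of doxycycline (2 µg/ml), with and without VC, which is ascorbic acid (50 µg/ml) plus the GSK3 inhibitor CHIR99021 (3 µM). The inhibitor set held 24 libraries. Tail tip cells of genotype ERCC1_(d/-) from a 4 week old female were left as control or given Repsox, Vactosertib, A83-01 or DMH-1. Its other groups were ERCC1_(+/+)_WT tail tip and skin cells from a 14 week old female, and 4FJ_(+/-)_OCT4-GFP tail tip cells of 22 weeks labelled with the treatment TGFB. Sex, age, the source of the cassette and the OCT4-GFP label changed with genotype in the reprogramming set, and age changed with it between the tail tip controls of the inhibitor set, so genotype cannot be told apart from these. Nothing stated that the 3 libraries of a group came from separate animals, so p-values measure the spread between these libraries.

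TGFb and BMP ligands bind paired type I and type II receptors, and the type I receptor phosphorylates receptor Smads. ALK5 and related receptors act on Smad2 and Smad3, whereas ALK2 and other BMP type I receptors act on Smad1, Smad5 and Smad9. Phosphorylated receptor Smads join Smad4 and enter the nucleus. Smad6 and Smad7 are inhibitory Smads, with Smad6 acting mainly on the BMP branch and Smad7 on both, and Ski and Skil (SnoN) are co-repressors bound by Smads. Smad6, Smad7 and Skil are themselves well-known transcriptional targets of these pathways, and in fibroblasts TGFb signaling drives matrix genes.

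Total counts were 16538374 to 18484951 per library in the reprogramming set and 17102639 to 30599138 in the inhibitor set. All 10 members were tested in both sets, among 15832 and 15652 genes that had enough counts. Fibroblast markers had a summed level of 24300 to 243000 CPM (counts scaled to library size) over 8 genes across the groups. The sum is weighted to collagen genes. Col1a1 alone, which is also read below as a TGFb target gene, had 10190 to 164600 CPM in the reprogramming set. Other markers of the list were lower, with Pdgfra at 14.6 to 1459 CPM and Lum at 8.43 to 120 CPM in the inhibitor set. Ercc1 itself ranged from 8.04 to 18.6 CPM in 18 D/KO libraries and from 16.9 to 29.1 CPM in 18 WT libraries of the reprogramming set, and from 13.2 to 23.5 CPM against 13.3 to 47.8 CPM in the inhibitor set, so the ranges of the genotypes overlapped in both sets. In bulk samples fewer cells of a type and less RNA per cell cannot be told apart.

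Levels between genes were compared per kilobase of the deposited exon length. Ski was the most abundant member, with group means of 53.6 to 92.4 CPM per kilobase in the reprogramming set, followed by the common Smad, Smad4, at 29.2 to 41.8. Smad3 ranged from 12.0 to 24.8 CPM per kilobase and Smad2, which shares its receptors, from 5.32 to 7.68. Of the BMP-branch Smads, Smad5 lay at 13.6 to 19.9 CPM per kilobase, Smad1 at 3.30 to 9.91 and Smad9 at 0.513 to 1.61. Skil lay at 2.93 to 7.96 CPM per kilobase, and the inhibitory Smads at 9.26 to 21.2 (Smad6) and 6.33 to 9.82 (Smad7). By the median of the group means Smad9 was the lowest member in both sets. Group means differed least for Smad4 in the inhibitor set, where the highest was 1.16 times the lowest, and most for Skil in the same set, with a ratio of 21.2. Smad9 followed with a ratio of 10.6. Smad1 shares 7.46% of its exon bases with an antisense lncRNA and Smad5 shares 1.35% with a small RNA on its own strand, so their values carry some uncertainty (the strand setting of the counting was not given in the sources used here).

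Repsox, Vactosertib and A83-01 inhibit ALK5, and the published description names Vactosertib as an inhibitor of ALK2 as well. Values with Vactosertib therefore cannot be assigned to ALK5 alone. Skil fell with each ALK5 inhibitor. Its gene (GRCm39 chromosome 3, 31149207 to 31176726, plus strand) had 46.3, 45.8 and 42.6 CPM in the control D/KO libraries. Vactosertib gave 14.2, 13.3 and 11.5 CPM, Repsox 11.5, 7.57 and 10.2 CPM, and A83-01 7.23, 6.45 and 7.50 CPM. Every library treated with an ALK5 inhibitor lay below every control library. The log2 change of Skil was -1.79 ± 0.15 (SE) with Vactosertib (adjusted p = 1.84e-08), -2.20 ± 0.15 with Repsox (8.28e-10) and -2.67 ± 0.15 with A83-01 (3.25e-11), the last a 6.35-fold lower level. These p-values are from the quasi-likelihood F-test of edgeR, adjusted by Benjamini-Hochberg over all genes, and a gene is called when its adjusted p is under 0.05. DMH-1, an inhibitor of the BMP receptor ALK2, also lowered Skil, to 28.0, 28.7 and 24.4 CPM, a fall by 0.73 ± 0.14 on the log2 scale (adjusted p = 0.00203).

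Smad6 and Smad9 moved the other way. Smad6, the inhibitory Smad of the BMP branch, had 29.1, 29.5 and 28.2 CPM in control D/KO cells. It reached 64.6, 69.9 and 74.5 CPM with Vactosertib, 69.3, 74.3 and 70.5 CPM with Repsox and 95.2, 93.6 and 99.0 CPM with A83-01. The groups did not overlap with the controls, and the log2 increases were 1.27 ± 0.12 (adjusted p = 9.36e-08), 1.30 ± 0.12 (4.85e-08) and 1.73 ± 0.12 (4.97e-10). Smad9, the least abundant receptor Smad, rose from 2.56, 2.78 and 2.30 CPM to 8.12, 9.42 and 8.41 CPM with Vactosertib, to 10.5, 6.81 and 10.6 CPM with Repsox and to 10.5, 12.1 and 12.0 CPM with A83-01. Its log2 increases were 1.76 ± 0.21 (adjusted p = 2.84e-06), 1.87 ± 0.21 (9.13e-07) and 2.17 ± 0.21 (6.94e-08). With DMH-1 Smad6 had 31.8, 26.9 and 23.4 CPM, which overlapped the controls, and Smad9 had 1.47, 1.53 and 1.84 CPM, below all 3 controls but with an adjusted p of 0.0744.

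The promoters of Smad6 and Smad9 are shown because these genes rose together with each ALK5 inhibitor. RefSeq windows on GRCm38.p6 ran from 250 bases before to 20 bases after the annotated start. They were used for 6 of the 10 members (Smad1, Smad3, Smad5, Smad6, Smad9 and Ski). Windows of Smad2, Smad4, Smad7 and Skil were not used. The Smad6 window is chr9:64022040-64022309 on the minus strand and the Smad9 window is chr3:54755332-54755601 on the plus strand. Capitals mark the palindromic Smad-binding element GTCTAGAC and the GC-rich element GGCGCC, both searched on both strands.
Smad6: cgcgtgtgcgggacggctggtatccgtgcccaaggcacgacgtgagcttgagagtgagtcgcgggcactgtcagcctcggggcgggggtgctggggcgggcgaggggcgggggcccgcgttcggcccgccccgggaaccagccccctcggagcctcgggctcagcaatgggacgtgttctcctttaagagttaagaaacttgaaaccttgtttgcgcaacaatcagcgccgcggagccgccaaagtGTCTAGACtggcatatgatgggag
Smad9: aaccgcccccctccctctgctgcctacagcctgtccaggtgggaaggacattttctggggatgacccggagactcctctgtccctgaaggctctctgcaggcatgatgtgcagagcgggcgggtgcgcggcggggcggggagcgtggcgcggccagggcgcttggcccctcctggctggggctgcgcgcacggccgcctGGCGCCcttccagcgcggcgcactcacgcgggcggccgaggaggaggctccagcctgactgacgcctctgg
Smad6 held GTCTAGAC from position -4, across the annotated start, a match found in 0.183% of 32851 promoter windows of the same length. No other window searched among the members held it. Windows of Smad2, Smad4, Smad7 and Skil were not searched, so the match cannot be called particular to Smad6 among the 10 members. Smad9 held GGCGCC from position -51, a match found in 10.4% of all windows and also in Ski and in 1 of 3 Smad5 windows. The shorter half-element CAGAC was present in 45.4% of all windows and, among the members searched, in 1 Smad5 window. The windows had GC contents of 65.6% (Smad6) and 72.6% (Smad9) against a median of 52.6%. These matches describe letters and say nothing of binding.

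**Figure D1:**
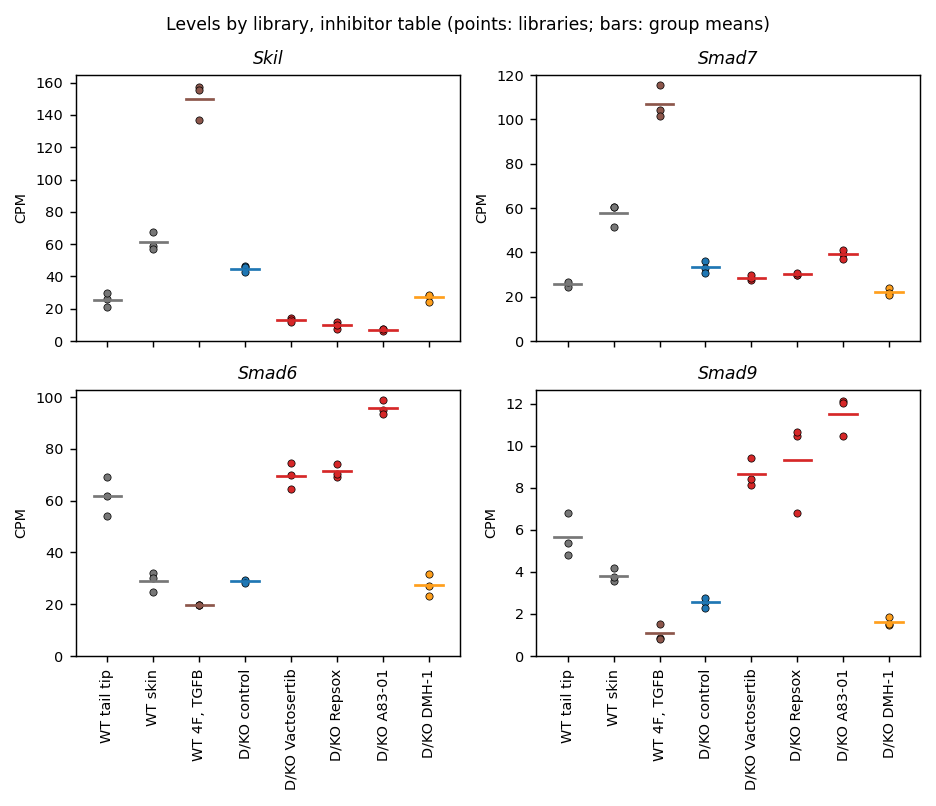
Levels of Skil, Smad7, Smad6 and Smad9 (CPM, vertical axes from 0) in the 8 groups of the inhibitor set, with 1 point per library and bars at the mean of 3. With the 3 ALK5 inhibitors Skil lay at 6.45 to 14.2 CPM, below all other libraries, whereas Smad6 and Smad9 lay above the control D/KO cells.

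Smad7, which blocks type I receptors of both branches, did not follow Skil. It had 36.3, 33.0 and 30.6 CPM in control cells, 30.0, 29.7 and 30.8 CPM with Repsox, 27.7, 28.3 and 29.7 CPM with Vactosertib, and 39.1, 41.2 and 37.0 CPM with A83-01. None of these 3 passed the test of edgeR, with adjusted p of 0.319, 0.113 and 0.0753, although A83-01 lay above and Vactosertib below all 3 controls. DMH-1 gave the lowest Smad7 levels of the set, 23.7, 21.5 and 20.8 CPM, a fall by 0.60 ± 0.09 on the log2 scale (adjusted p = 0.000297).

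Of the 10 members edgeR called 2 higher (Smad6 and Smad9) and 1 lower (Skil) with each ALK5 inhibitor. With A83-01, DESeq2 (another test of counts) and a filter of at least 10 counts in every library each gave 3 higher and 1 lower. Among all genes tested 11.0% were called higher and 9.73% lower with Repsox, 9.37% and 8.70% with Vactosertib, and 13.6% and 13.9% with A83-01. With DMH-1 no member was called higher and 2 were called lower (Smad7 and Skil), beside 4.35% and 2.90% of all genes. The median log2 change over the members was 0.15 with Repsox, 0.12 with Vactosertib, 0.21 with A83-01 and 0.01 with DMH-1, beside medians over all genes of at most 0.02 in size. Smad1, Smad2, Smad3, Smad4, Smad5 and Ski were called with none of the 4 inhibitors. For Smad3 the log2 values were 0.29 to 0.36, all with an SE of 0.18. Repsox replicate 2 had 106 CPM of Smad3 and 303 CPM of Ski where the other Repsox libraries had 164 and 175 CPM and 469 and 504 CPM, and without it Smad2 (log2 0.37) and Smad3 (log2 0.52) were called with Repsox. DMH-1 replicate 2 held 1000 CPM of 8 interferon-stimulated genes against 60.6 and 67.0 CPM in the other DMH-1 libraries and 22.8 to 26.4 CPM in the controls, with 7 of 7 tested genes higher in the group, and its part was not tested. The DMH-1 calls of Skil and Smad7 were made in all 13 alternatives, including the fit without it.

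Doses are not in the labels of these libraries and were taken from the published description as 0.1 µM for Repsox and Vactosertib and 1 µM for A83-01 and DMH-1, each for 3 days, which gives 2 pairs at a shared dose. Between Repsox and Vactosertib edgeR called no member, beside 0.00% of all genes higher and 0.00% lower. At an unadjusted p under 0.05 there were 1 member and 347 genes, and DESeq2 called 0 members and 6 genes. The member was Skil, with a log2 difference of -0.41 and a 95% interval of -0.71 to -0.11. For Smad6 the interval was -0.20 to 0.27 and for Smad9 -0.29 to 0.50. A83-01 against DMH-1 separated 5 members, with Smad9 (log2 2.84 ± 0.21), Smad6 (1.81 ± 0.12) and Smad7 (0.83 ± 0.09) higher and Skil (-1.94 ± 0.15) and Smad1 (-0.40 ± 0.09) lower with A83-01. In this comparison 9.67% of all genes were called higher and 10.8% lower. A83-01 was given at a higher dose than Repsox and Vactosertib, so their values stand side by side without a comparison.

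**Figure D2:**
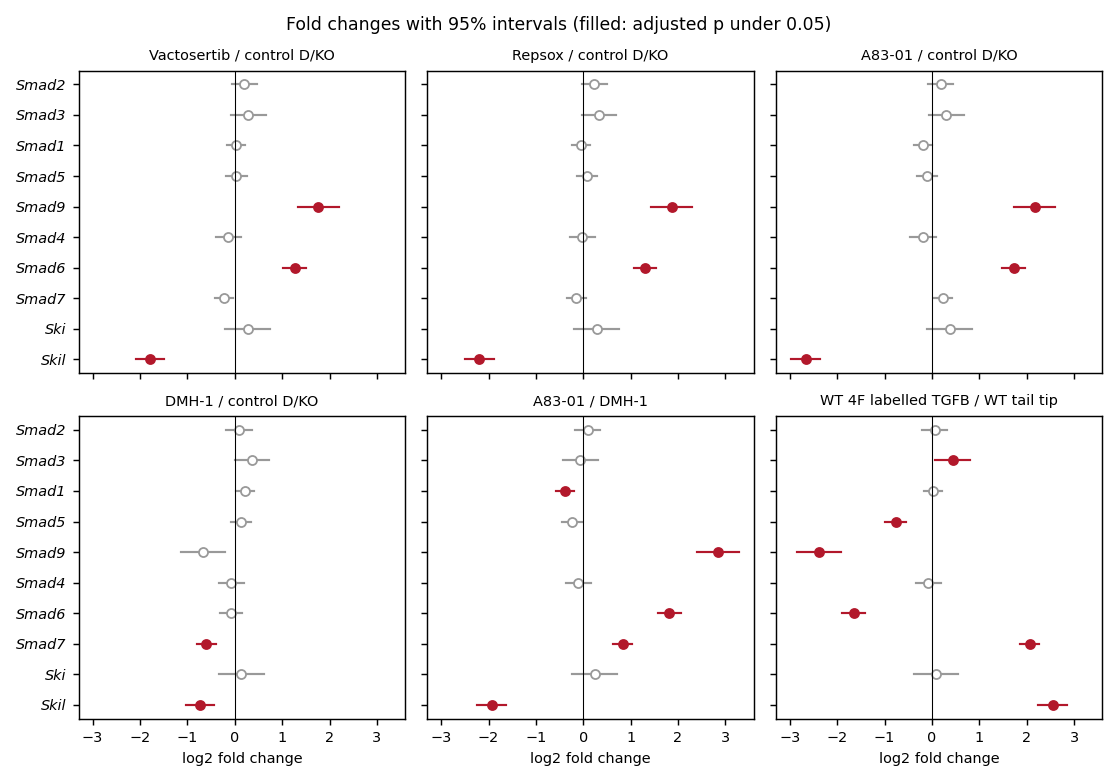
Log2 fold changes (horizontal axis) of the 10 members with 95% intervals in 6 comparisons of the inhibitor set, filled where the adjusted p was under 0.05. Skil lies left and Smad6 and Smad9 right of 0 with each ALK5 inhibitor, and the WT 4F cells labelled TGFB show Skil and Smad7 at the right and Smad6 and Smad9 at the left.

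Other genes of the pathway were read from lists fixed by name. Of 12 TGFb target genes 10 were lower and 1 higher with A83-01 (median log2 -1.18), 7 lower and 1 higher with Repsox and with Vactosertib (-0.97 and -0.81), and 5 lower and 1 higher with DMH-1 (-0.68). Tgfbi, a secreted matrix protein, fell by 2.92 ± 0.13 and Pmepa1, a membrane protein that sequesters receptor Smads, fell by 1.79 ± 0.09 with A83-01. Of 9 BMP target genes 7 were higher and none lower with each ALK5 inhibitor, with medians of 1.53 (A83-01), 1.5 (Repsox) and 1.18 (Vactosertib), and 1 was higher and 1 lower with DMH-1. Atoh8, a bHLH transcription factor, rose by 2.77 ± 0.11 and Id4, an inhibitor of bHLH factors, by 2.97 ± 0.15 with A83-01. Of 15 Smad regulators tested 1 was higher and 4 lower with A83-01, and the smallest p-values were those of Pmepa1 and the co-repressor Tgif1 (-0.92 ± 0.10). Of 12 receptors tested 1 was higher and 5 lower, with Acvr1, which encodes ALK2, at -0.77 ± 0.11 and the BMP receptor Bmpr1b at -2.21 ± 0.37. The endothelial marker sum was 141 to 181 CPM with A83-01 against 290 to 331 CPM in controls, with 3 of 5 genes lower and 1, Tek, higher (1.09 ± 0.13). The fibroblast sum was 35700 to 38000 against 72100 to 78400 CPM, with 4 of 8 genes lower and 1 higher. It was also lower with Repsox (31900 to 41500 CPM) and Vactosertib (42100 to 45700 CPM), again with 4 of 8 genes lower and 1 higher in each, and 2 of 5 leukocyte genes were higher with each ALK5 inhibitor. The part of these markers in the member changes was not tested.

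The WT 4F cells labelled TGFB showed the converse order. Skil had 158, 137 and 156 CPM there against 26.1, 29.7 and 21.1 CPM in WT tail tip controls, a log2 increase of 2.55 ± 0.15 (adjusted p = 3.96e-12). Smad7 had 104, 102 and 116 CPM against 25.8, 24.5 and 26.7 CPM (2.06 ± 0.10, adjusted p = 1.31e-13). Both were the highest levels of these genes in the inhibitor set, with no overlap with any other group. Smad6 had 19.7, 19.6 and 19.7 CPM against 61.9, 54.1 and 69.0 CPM and fell by 1.65 ± 0.12 (adjusted p = 1.17e-10). Smad9 fell by 2.38 ± 0.22 (adjusted p = 9.91e-09), to 0.825 to 1.54 CPM, and Smad5 changed by -0.77 ± 0.10. Smad3 was 0.43 ± 0.18 higher (adjusted p = 0.0382), a call made in 6 of 12 alternatives. Thus 3 members were called higher and 3 lower, beside 28.6% and 33.6% of all genes, with a median log2 of 0.05 over the members and -0.11 over all genes. The line, its cassette and its age changed with the label, and the endothelial marker sum was 1.2 to 1.88 CPM against 73.4 to 91.2 CPM. The leukocyte sum was 20.9 to 24.8 against 7.94 to 9.47 CPM, with 5 of 5 genes higher, and 5 of 8 fibroblast genes were lower and none higher (median log2 -1.89). The label TGFB cannot be told apart from the line, cassette and age, and the part of the markers was not tested. Of the 12 TGFb target genes 9 were higher and 2 lower, and of the 9 BMP target genes 3 were higher and 5 lower.

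WT skin cells differed from WT tail tip cells in Skil, Smad7 and Smad6. Skil had 67.5, 58.9 and 56.8 CPM in skin (log2 1.25 ± 0.14, adjusted p = 5.92e-07) and Smad7 60.7, 60.6 and 51.4 CPM (1.17 ± 0.09, adjusted p = 5.62e-09), both above all tail tip libraries. Smad6 was lower at 24.7, 32.1 and 30.1 CPM, a fall by 1.09 ± 0.12 (adjusted p = 2.33e-07). In all 3 members were called higher and 5 lower (Smad2, Smad3, Smad5, Smad6 and Smad9), beside 18.1% and 16.1% of all genes. The fit of these 2 groups alone called 2 higher and 1 lower. Skin replicate 1 had 32.6 CPM of Smad3 and 123 CPM of Ski where the other skin libraries had 54.4 and 55.9 CPM and 288 and 278 CPM. The skeletal muscle marker sum was 57.5 to 84.2 CPM in skin and 2.09 to 3.76 CPM in tail tip, and the endothelial sum was 167 to 241 against 73.4 to 91.2 CPM, with 4 genes higher and 1 lower. The part of either was not tested.

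D/KO and WT tail tip cells differed in Skil, Smad6 and Smad9 in both sets. At day 0 of the reprogramming set Skil had 46.2, 44.9 and 59.9 CPM in D/KO and 36.3, 22.2 and 31.4 CPM in WT cells (log2 0.75 ± 0.17, adjusted p = 0.000726). In the inhibitor set the controls differed by 0.81 ± 0.14 (adjusted p = 0.000112). Smad9 was lower in D/KO cells, with log2 differences of -1.65 ± 0.29 at day 0 and -1.15 ± 0.21 in the inhibitor set, and Smad6 was lower with differences of -0.69 ± 0.14 and -1.09 ± 0.12. None of the D/KO libraries overlapped the WT libraries for these 3 genes. Smad1 was higher in both sets, with 63.8, 61.0 and 61.4 CPM against 31.2, 26.9 and 27.7 CPM at day 0 (1.12 ± 0.12, adjusted p = 2.47e-09) and a smaller difference of 0.27 ± 0.09 in the inhibitor set. At day 0 Smad4 was also higher (0.46 ± 0.10), giving 3 members higher and 2 lower beside 22.1% and 21.1% of all genes. In the inhibitor set Smad3 (0.54 ± 0.18) and Smad7 (0.38 ± 0.09) were higher too, giving 4 higher and 2 lower beside 17.9% and 16.6%. The endothelial marker sum over 5 genes was 586 to 710 CPM in D/KO against 14.6 to 17.3 CPM in WT cells at day 0 with 5 of 5 genes higher, and 290 to 331 against 73.4 to 91.2 CPM in the inhibitor set, with 4 higher and 1 lower. The leukocyte marker sum over 5 genes was 12.8 to 13.4 CPM in D/KO against 75.6 to 146 CPM in WT cells at day 0, with 5 lower, and 10.1 to 14.3 against 7.94 to 9.47 CPM in the inhibitor set, with 1 higher. The part of these cells or transcripts in the D/KO values was not tested.

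During reprogramming Skil rose at day 4 plus VC in both lines. In D/KO cells Skil had 42.0, 41.7 and 57.3 CPM at day 0 plus VC, 63.1, 59.3 and 55.2 CPM at day 2 plus VC and 92.0, 72.1 and 67.3 CPM at day 4 plus VC. The increase at day 4 plus VC was 0.71 ± 0.17 (adjusted p = 0.000641) without overlap with day 0 plus VC. In WT cells it went from 24.3, 33.4 and 28.2 CPM to 39.5, 39.5 and 43.0 CPM at day 4 plus VC (0.51 ± 0.18, adjusted p = 0.0188), a call lost in 3 of 13 alternatives that each left out 1 library. Without VC Skil was called in neither line, with log2 values of -0.08 to 0.34. The change at day 4 plus VC did not pass the test for a difference between the lines (0.21 ± 0.25, 95% interval -0.29 to 0.71, adjusted p = 0.56).

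Ski, the related co-repressor, moved the opposite way with VC. In D/KO cells it had 421, 553 and 424 CPM at day 0 plus VC, 336, 342 and 281 CPM at day 2 plus VC and 330, 318 and 247 CPM at day 4 plus VC. All libraries after day 0 lay below those of day 0, with log2 changes of -0.55 ± 0.12 (adjusted p = 0.000165) and -0.64 ± 0.12 (1.2e-05). WT cells went from 471, 519 and 553 CPM to 376, 316 and 310 CPM at day 4 plus VC, a fall by 0.62 ± 0.12 (adjusted p = 3.33e-05). These 3 calls were made in every alternative tried, but against day 0 without VC the WT value was -0.31 (adjusted p = 0.0298). Without VC Ski was not called at either time in either line.

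**Figure D3:**
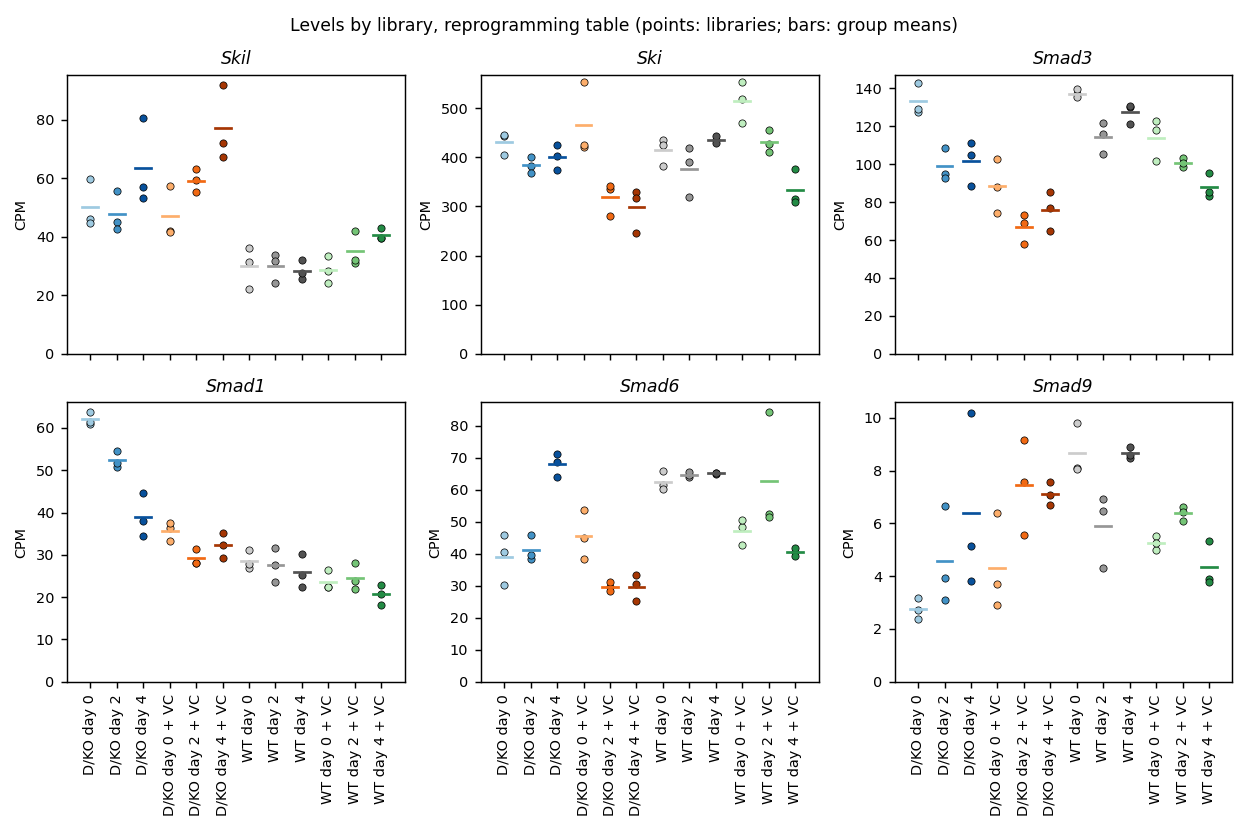
Levels of Skil, Ski, Smad3, Smad1, Smad6 and Smad9 (CPM, vertical axes from 0) in the 12 groups of the reprogramming set, with 1 point per library and bars at the mean of 3. Skil is highest and Ski lowest at D/KO day 4 plus VC, and Smad1 is highest at D/KO day 0.

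The receptor Smads of the TGFb branch were lower in most D/KO groups. Smad3 had 127, 143 and 129 CPM at day 0, 109, 94.9 and 92.8 CPM at day 2 and 111, 105 and 88.4 CPM at day 4. Both times lay below day 0, with log2 changes of -0.43 ± 0.11 (adjusted p = 0.00291) and -0.39 ± 0.11 (0.00476). With VC Smad3 changed by -0.40 ± 0.11 at day 2 in D/KO cells (adjusted p = 0.00317) and by -0.37 ± 0.11 at day 4 in WT cells (0.00613). Against day 0 without VC these values were -0.996 and -0.64. Smad2 fell at D/KO day 2 and, with VC, at day 2 and day 4 (-0.29 to -0.36), with both VC calls made in every alternative. Smad4 fell at D/KO day 2 (-0.27 ± 0.10, adjusted p = 0.0443), a call made in 6 of 12 alternatives. In total Smad3 was called lower in 4, Smad2 in 3 and Smad4 in 1 of the 8 comparisons with day 0, and none of them was called higher.

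The BMP-branch members moved in different directions. Smad1 fell in D/KO cells from 63.8, 61.0 and 61.4 CPM at day 0 to 34.4, 37.9 and 44.6 CPM at day 4, a fall by 0.67 ± 0.12 (adjusted p = 2.13e-05). Over the same days the endothelial sum went from 586 to 710 CPM to 328 to 345 CPM, with 4 of 5 genes lower and 1 higher, and its part in the Smad1 change was not tested. At day 2 plus VC Smad1 was also called lower in D/KO cells (-0.29 ± 0.12, adjusted p = 0.048), in 6 of 13 alternatives. Its mean there was 29.1 CPM, against 35.7 CPM at day 0 plus VC and 62 CPM at day 0 without VC. Smad5 rose in WT cells, from 108, 108 and 118 CPM at day 0 to 140, 134 and 137 CPM at day 4 (0.30 ± 0.10, adjusted p = 0.0219), and at day 2 plus VC (0.30 ± 0.10) and day 4 plus VC (0.36 ± 0.10, adjusted p = 0.00291). The last of these was called in all 13 alternatives and the first in 8 of 12. Smad9 rose in D/KO cells from 2.39, 3.17 and 2.71 CPM at day 0 to 5.16, 3.81 and 10.2 CPM at day 4 (1.21 ± 0.29, adjusted p = 0.00111). The highest of these was replicate 3, and without it the log2 value was 0.70 with an adjusted p of 0.0533. With VC it was called higher at day 2 (0.78 ± 0.28) and day 4 (0.72 ± 0.28), calls lost on leaving out some single libraries. Against day 0 without VC these values were 1.43 and 1.37.

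Smad6 changed direction with VC. In D/KO cells without VC it rose from 40.6, 30.1 and 45.9 CPM at day 0 to 63.8, 68.8 and 71.1 CPM at day 4 (0.81 ± 0.14, adjusted p = 1.88e-05). With VC it went from 38.4, 44.8 and 53.8 CPM at day 0 to 29.5, 28.3 and 31.2 CPM at day 2 and 25.2, 30.6 and 33.3 CPM at day 4, log2 changes of -0.62 ± 0.15 at both times (adjusted p = 0.000591 and 0.000468). Each of these groups was clear of its own day 0, and the 3 calls were made in every alternative, although against day 0 without VC both plus VC values were -0.39. In WT cells Smad6 stayed at 60.2 to 65.8 CPM at day 0, day 2 and day 4 without VC. The rise at WT day 2 plus VC (0.41 ± 0.14, adjusted p = 0.0278) rested on replicate 1, which had 84.3 CPM against 52.4 and 51.5 CPM, and was not called without it. The group mean of Smad6 there was 62.7 CPM, against 47.1 CPM at day 0 plus VC but 62.5 CPM at day 0 without VC. Smad7 was called in none of the 8 comparisons, with log2 values of -0.26 to 0.24.

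By comparison with day 0, D/KO day 2 had 0 members higher and 3 lower (14.3% and 13.2% of all genes), and D/KO day 4 had 2 higher and 2 lower (18.3% and 18.7%). D/KO day 2 plus VC had 1 higher and 5 lower (23.8% and 23.6%), and D/KO day 4 plus VC had 2 higher and 3 lower (27.9% and 26.2%). WT day 2 had no member called by edgeR, with 2 at an unadjusted p under 0.05 and 0 by DESeq2 (6.26% and 4.30% of all genes). WT day 4 had 1 higher and 0 lower (11.7% and 12.8%), WT day 2 plus VC had 2 higher and 0 lower (13.8% and 13.7%), and WT day 4 plus VC had 2 higher and 2 lower (22.7% and 22.0%). With no filter on low counts D/KO day 2 had 1 member higher and 1 lower. In D/KO cells without VC the fibroblast sum went from 70300 to 111000 CPM at day 0 to 28500 to 30300 CPM at day 4, with 6 of 8 genes lower and 1 higher, and the keratinocyte sum from 0.177 to 0.763 CPM to 42.9 to 59.4 CPM, with 4 of 4 tested genes higher. The keratinocyte marker sum reached 337 to 467 CPM at D/KO day 4 plus VC from 1.19 to 2.14 CPM at day 0 plus VC. Of 4 tested genes 3 were higher and 0 lower, and Trp63 was not called (0.46 ± 0.41). Krt14 alone reached 422 CPM in the reprogramming set. The fibroblast sum at D/KO day 4 plus VC was 24300 to 24900 against 176000 to 243000 CPM, with 7 of 8 genes lower and Thy1 higher (0.79 ± 0.12). The endothelial sum there was 383 to 514 against 215 to 256 CPM, with 2 of 5 genes higher and 2 lower. In WT cells at day 4 plus VC the interferon-stimulated sum was 37.6 to 58.1 against 168 to 658 CPM at day 0 plus VC, with 7 of 7 tested genes lower, and the fibroblast sum was 51900 to 61400 against 148000 to 162000 CPM. The endothelial sum there was 98.1 to 116 against 4.73 to 7.08 CPM, with 1 of 5 genes higher and 1 lower. The leukocyte sum was 41.6 to 44.3 against 69.6 to 118 CPM, with 3 of 5 genes lower and 0 higher. At WT day 4 without VC the endothelial sum was 95.3 to 95.7 against 14.6 to 17.3 CPM, with 1 of 5 genes higher and 0 lower. The part of such changes in the members' values was not tested.

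**Figure D4:**
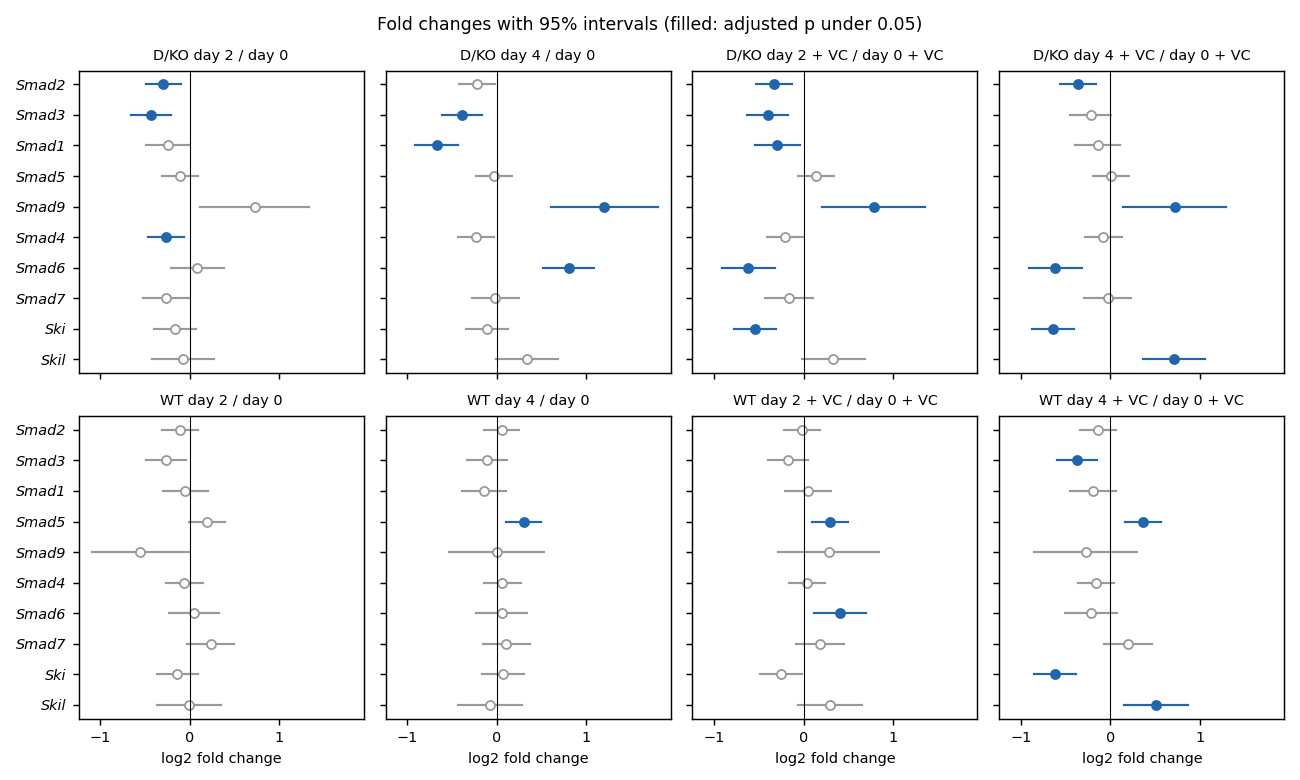
Log2 fold changes (horizontal axis) of the 10 members with 95% intervals against day 0 of the same line and medium, filled where the adjusted p was under 0.05. Ski lies left of 0 and Skil right of 0 at day 4 plus VC in both lines, and Smad7 is unfilled in all 8 panels.

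VC without doxycycline changed some members at day 0. In D/KO cells 0 were higher and 3 lower, namely Smad1 (-0.80 ± 0.12, adjusted p = 3.20e-06), Smad3 (-0.59 ± 0.11, adjusted p = 8.25e-05) and Smad7 (-0.42 ± 0.13, adjusted p = 0.0147), beside 12.1% and 14.0% of all genes. Smad1 had 36.3, 33.2 and 37.6 CPM with VC, all below day 0 without VC. In the same D/KO libraries the endothelial sum was 215 to 256 CPM with VC against 586 to 710 CPM without, with 5 of 5 genes lower, and the fibroblast sum was 176000 to 243000 against 70300 to 111000 CPM, and the part of these in the member changes was not tested. In WT cells Ski was higher (0.31 ± 0.11) and Smad6 (-0.41 ± 0.14), Smad7 (-0.40 ± 0.13) and Smad9 (-0.72 ± 0.27) were lower, 1 and 3 members beside 15.1% and 14.4%. Each of these 4 WT calls was lost when certain single libraries were left out, and the interferon-stimulated gene sum was 168 to 658 CPM with VC against 59.1 to 62.6 CPM without, and the fibroblast sum was 148000 to 162000 against 46300 to 47700 CPM, with 5 of 8 genes higher and none lower. Their part was not tested. Because VC itself moved the baseline, the plus VC groups were also read against day 0 without VC. Against that baseline all 10 members were called at D/KO day 4 plus VC, 2 higher and 8 lower, in place of 5, beside 26.6% and 25.5% of all genes. At WT day 4 plus VC it gave 2 members higher and 6 lower, beside 20.3% and 18.9% of all genes. This baseline joins the changes with VC and with doxycycline.

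The change from day 0 was tested for a difference between the lines. At day 2 the difference was called for Smad9 alone (1.28 ± 0.40, adjusted p = 0.0475, 1 member higher and 0 lower in D/KO than in WT, beside 3.43% and 3.11% of all genes). At day 4 it was called for Smad6 (0.75 ± 0.20, adjusted p = 0.00883), Smad9 (1.21 ± 0.39, adjusted p = 0.0345) and Smad1 (-0.53 ± 0.17, adjusted p = 0.0335), 2 higher and 1 lower beside 7.27% and 7.04%. At day 2 plus VC it was called for Smad6 (-1.03 ± 0.20, adjusted p = 0.000428), 0 higher and 1 lower beside 6.86% and 7.00%. At day 4 plus VC it was called for Smad5 (-0.36 ± 0.14, adjusted p = 0.0497), 0 higher and 1 lower beside 13.9% and 15.5%. The 2 differences of Smad6 were called in all 18 alternatives, and that of Smad5 in 6 of 18.

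Of 12 TGFb target genes 10 were lower in D/KO cells at day 2 and 11 at day 4, and with VC 11 were lower at each time, with a median log2 of -2.49 at day 4 plus VC. None was higher except 1 at day 4 plus VC. Acta2, smooth muscle actin, fell by 4.30 ± 0.19 and Tgfbi by 2.38 ± 0.10 at D/KO day 4 plus VC. In WT cells 5 were lower and 1 higher at day 2, and 8 lower and 2 higher at day 4. With VC 6 were lower and 2 higher at day 2, and 10 lower and 1 higher at day 4. The BMP target genes were split, with 4 higher and 3 lower of 9 at D/KO day 4 plus VC, where Id1 rose by 1.63 ± 0.29 and the pseudoreceptor Bambi fell by 1.10 ± 0.19. Of 15 Smad regulators 8 were higher and 2 lower there, with Strap, a Smad7-binding protein, at 0.89 ± 0.09 and Pmepa1 at -1.51 ± 0.09. Of 12 receptors 2 were higher and 6 lower, with the co-receptor Tgfbr3 at -1.62 ± 0.13 and the type II receptor Tgfbr2 at -0.72 ± 0.09.

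Skil and Smad6 were plotted against each other in every library because they moved apart with each ALK5 inhibitor. Libraries with much Skil had little Smad6 in the inhibitor set, whereas D/KO cells at day 4 without VC held both, with 53.1 to 80.6 CPM of Skil and 63.8 to 71.1 CPM of Smad6. DMH-1 libraries lay low for both genes, at 24.4 to 28.7 CPM of Skil and 23.4 to 31.8 CPM of Smad6.

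**Figure D5:**
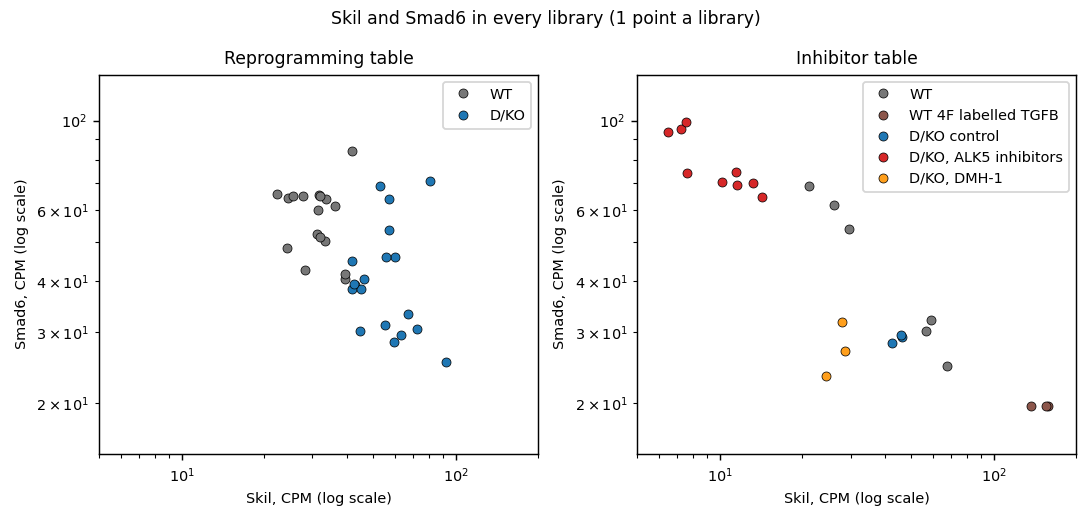
Skil (horizontal) against Smad6 (vertical), CPM on log axes, with 1 point per library in the 36 libraries of the reprogramming set and the 24 of the inhibitor set. Cells given ALK5 inhibitors lie at the upper left and the WT 4F cells labelled TGFB at the lower right, with DMH-1 libraries below this band.

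The genes whose levels were most like each member were found over the 60 libraries by Pearson's r of log2 CPM, centred within each set, among 14941 genes. The libraries share groups and treatments, so the values describe likeness only. Skil was most like Bhlhe40, a bHLH repressor (r = 0.938), and Me2, a malic enzyme (0.881). Smad9 was most like Atoh8 (0.855), a gene of the BMP target list, and Ahr (0.779), and Smad6 was most like Mturn (0.872) and Rnf167 (0.847). Smad7 was most like Hspa2 (0.824) and Il11, a cytokine (0.821). Smad2 was nearest to another member, Smad3 (0.854), followed by Fam13b (0.837), and Smad3 was nearest to Sft2d2 (0.908) and Pskh1 (0.870). Smad1 was nearest to Rasgrp3 (0.893) and Mcam, an adhesion molecule of endothelial and other cells (0.872). Smad5 was nearest to Zfp36l2 (0.813) and Vwa5a (0.806), Ski to Pcyox1 (0.898) and St3gal2 (0.897), and Smad4 had the lowest values, with Dock4 (0.731) and Hipk1 (0.660).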

How the data were processed

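Gene counts were deposited by the authors as 2 tables of raw read counts, 36 libraries of the reprogramming set and 24 of the inhibitor set. Per the submitters' processing notes, reads were trimmed with Trim Galore, aligned to GRCm39 with HISAT2 and counted with featureCounts. The tables also give each gene's exon length in bases, used for levels per kilobase. Of 56980 gene identifiers 56236 (98.7%) were matched to symbols. Counts were analysed per table with edgeR 4.0.16 in R 4.3.3, using genes kept by filterByExpr (minimum count 10, minimum total 15), TMM scaling, 1 quasi-likelihood fit over all groups of the table and Benjamini-Hochberg adjustment within each of 24 comparisons at 0.05. Levels are CPM on TMM-scaled library sizes, and errors are SE unless stated. At these depths even Smad9 was counted. Taken over all genes with enough counts, replicate spread exceeded counting noise (variance ratios of 3.18 to 366 between pairs of libraries). The ratio was not taken for single members. Counting noise may still matter for Smad9, which had 18 to 325 counts per library in the inhibitor set. The fitting steps were tested on simulated data.

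Groups came from the labels. The 10 members, the gene lists, the tests and the rule for named genes were chosen with earlier results of these data known. The rule names all members, from each pathway list the 2 genes with the smallest p with A83-01 and the 2 at D/KO day 4 plus VC, and the 2 genes most correlated with each member. Alternatives were DESeq2 1.42.0, its size factors, other count filters, fits of fewer libraries, centring on the median, another day 0 baseline and leaving out each library. Promoters came from RefSeq on GRCm38.p6.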

Additional observations from a re-analysis of the deposited data

Results flagged for a closer look

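A total of 6 member results were singled out because the change from day 0 differed between D/KO and WT cells by the interaction test of edgeR. The log2 difference (D/KO change minus WT change) was 0.7472 for Smad6 at day 4 and -1.0323 for Smad6 at day 2 plus VC. Both of these were called in all 18 alternatives. For Smad9 it was 1.2838 at day 2 and 1.2078 at day 4, called in 8 and 11 of 18 alternatives. For Smad1 at day 4 it was -0.5287, called in 9 of 18, and for Smad5 at day 4 plus VC it was -0.3584, called in 6 of 18. Genotype, sex, age and line cannot be told apart in these differences. Groups of 3 libraries are too small for a test of single outlying libraries.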

How the results depend on the processing

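Of 3230 values of single members under the alternatives, 3057 kept their side of the threshold, 133 lost the call, 39 gained it and 1 reversed. A change of sign was counted as a reversal only where the main or the alternative value was called. Uncalled values that changed sign are therefore among the 3057. The reversal was Smad5 at D/KO day 4 plus VC, 0.00 against day 0 plus VC and -0.2386 against day 0 without VC. The other baseline raised the members called at D/KO day 4 plus VC from 5 to 10 and at WT day 4 plus VC from 4 to 8, while 8255 in place of 8564 and 6216 in place of 7072 of all genes were called. With no filter on low counts the number called was 0 at WT day 4, 1 at WT day 2 plus VC and 4 for skin, and the split was 1 higher and 1 lower in place of 0 and 3 at D/KO day 2 and 2 and 2 in place of 4 and 2 for control D/KO against WT tail tip. Fits of only the groups compared called 1 at WT day 2 plus VC, 5 with A83-01, 3 for skin and 0 for the line difference at day 2. That difference also had 0 with DESeq2 size factors, and the one at day 4 plus VC had 2 with DESeq2 (1 higher and 1 lower), 0 with its size factors and 0 after centring. With no filter on low counts and in the fit of only the groups compared, the difference at day 4 plus VC had 1 higher and 0 lower, in place of 0 and 1. Leaving out 1 library gave 1 to 3 members at D/KO day 2, 0 to 1 at WT day 4, 0 to 2 for VC in WT cells, 0 to 2 at WT day 2 plus VC, 5 to 8 for skin (5 without WT tail tip replicate 2) and 3 to 5 with Repsox (5 without Repsox replicate 2). For the line differences it gave 0 to 1 at day 2, 1 to 3 at day 4 and 0 to 1 at day 4 plus VC. The cause of these changes was not tested. Over all genes, fits of only the groups compared called 6400 in place of 3880 at WT day 4, 2523 in place of 4140 for VC in D/KO cells, 4317 in place of 2828 with Vactosertib, 1910 in place of 1135 with DMH-1 and 2591 in place of 5348 for skin. Repsox against Vactosertib had 6 genes with DESeq2 and 42 after centring in place of 0. At WT day 2, 1110 were called without WT day 0 replicate 1 and 1067 without WT day 2 replicate 2, in place of 1672. With DMH-1, 619 to 714 were called without any single control library and 652 without DMH-1 replicate 2. No paired analysis was possible on stated pairs because the labels give no replicate numbers. Replicates are numbered here in the running order of the labels. By that order Smad6 was highest in replicate 3 of every D/KO group of the reprogramming set, but not of every WT group. A pairing by that order was not tested.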
